A study of Mus musculus with 9 samples.

Results

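The 77 genes described here carry the names of mitochondrial ribosomal proteins, and all but Mrps36 encode a protein of that ribosome. They are 48 genes with a large subunit name (Mrpl) and 29 with a small subunit name (Mrps). They were taken by symbol: 84 of the 55367 rows of the count tables matched, 6 of these were pseudogenes, and 1 gene, Mrpl53, fell under the minimum, a mean of 1 CPM over the 9 libraries (CPM are counts scaled to a common library total). Mrpl53 had 0 to 3 counts per library (0.032 CPM on average), while the lowest genes kept, Mrps36 and Mrpl23, averaged 2.65 and 3.68 normalised CPM. All 77 had enough counts to be tested. The rule did not use any difference between groups.

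Mitochondria keep a ribosome of their own, descended from that of their bacterial ancestor. It makes the few proteins encoded in mitochondrial DNA, nearly all of them membrane subunits of the respiratory chain and the ATP synthase. Its RNAs come from mitochondrial DNA, but every one of its proteins is encoded in the nucleus, made in the cytosol and imported, and many of these proteins have no bacterial counterpart. In monocytes and macrophages mitochondrial respiration is one of the processes that differ between inflammatory and reparative states.

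The cells were mouse monocytes of adult animals, kept for 4 h with P7 platelets, with adult platelets or with a control buffer, then washed before polyadenylated RNA was sequenced. P7 is the usual shorthand for postnatal day 7. Each of the 3 groups held 3 libraries, and the strain, genotype and sex of the animals, the purity of the monocytes and of the platelets, and whether replicates were separate animals or cultures are not stated in the labels. The p-values therefore measure only the spread between these libraries, which may be technical.

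Total counts ranged from 29687341 to 37065564 per library, and the 8 monocyte markers, all of them detected, made up 2.45 to 3.08% of counts in every group. Red cell transcripts (5 markers, none of them at 0) took 4.36 to 5.50% of counts with P7 platelets, 0.0481 to 0.180% with adult platelets and 0.000881 to 0.00117% in control. Platelet transcripts (13 markers) took 0.126 to 0.148% with P7 platelets, 0.0764 to 0.141% with adult platelets and 0.000710 to 0.00147% in control, where 3 of the 13 were at 0. Igkc, an immunoglobulin light chain transcript, stood at 410 to 772 CPM in P7 replicate 1, adult replicates 1 and 3 and control replicate 1, and at 123 to 172 CPM in the other 5 libraries. In bulk RNA, fewer cells of a type and less RNA per cell cannot be told apart, and the part of other cells' RNA in the values below was not tested beyond the fits named.

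Libraries were scaled by TMM, which sets the bulk of genes level. On that scale most mitochondrial ribosomal protein genes shifted little, and those that changed were mostly higher after contact with platelets. More members were called higher with P7 than with adult platelets (45.5% and 26%), as were more of all genes (29.9% and 14.3%). Between P7 and adult platelets 16.9% of members were higher, beside 19.7% of all genes. With libraries scaled by their totals alone, the members that changed with P7 platelets were mostly lower (9 higher and 28 lower). So were all genes on that scale (2193 higher and 6846 lower of 13707). With adult platelets 8 members were then higher and 1 lower, beside 1291 and 2278 of all genes. With P7 platelets 35 of the 77 genes rose and 5 fell against control, beside 29.9% of all 13707 genes called higher and 29.3% called lower. The members' shares were 45.5% higher and 6.49% lower. Their median log2 fold change was 0.19 in the large and 0.17 in the small subunit, against -0.01 over all genes. Leaving out the libraries with much Igkc gave 43 higher and 8 lower, and a fit with the replicate number as a block gave 38 higher and 8 lower. On the same scale 7 of the 8 monocyte markers rose and 1, Ccr2, fell with P7 platelets (median 0.72), and their part in the family's values was not tested.

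These directions depended on how libraries were scaled. As a plain share of all counts the large subunit genes made up 0.130% ± 0.00289 with P7 platelets, 0.144% ± 0.00961 with adult platelets and 0.138% ± 0.00721 in control (SD, n = 3 each). The small subunit genes made up 0.0542% ± 0.000872, 0.0617% ± 0.00406 and 0.0601% ± 0.00350 of counts in P7, adult and control libraries. By that measure the family was lowest with P7 platelets, whose small subunit shares did not overlap with the control while the large subunit shares did. A second total left out the 13 platelet markers, the 5 red cell markers and mitochondrially encoded transcripts. Of that total the large subunit share was 0.140% ± 0.00404 with P7 platelets, 0.147% ± 0.0101 with adult platelets and 0.140% ± 0.00721 in control, and the groups overlapped. All other platelet and red cell transcripts stayed in it.

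After TMM scaling (factors of 0.882 to 0.903 for P7, 1.02 to 1.05 for adult and 1.07 to 1.1 for control libraries) the summed large subunit level was 1434 to 1472 normalised CPM with P7 platelets, 1327 to 1488 with adult platelets and 1239 to 1329 in control. For the small subunit the sums were 602.4 to 611.4, 568.5 to 635.9 and 540 to 582.9 normalised CPM in P7, adult and control libraries. The P7 and control libraries did not overlap in either sum, and the adult libraries spanned both. Replicate 1 of each group, where Igkc was high, had the highest large subunit sum of its group; Igkc was also high in adult replicate 3, whose sum of 1348 was the middle one. With a term for Igkc in the fit, 38 members rose and 7 fell with P7 platelets against control. The ratio of large to small subunit, which no scaling changes, was 2.38 to 2.41 with P7 platelets, 2.30 to 2.34 with adult platelets and 2.28 to 2.31 in control, so that the P7 libraries alone stood apart.

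**Figure D1:**
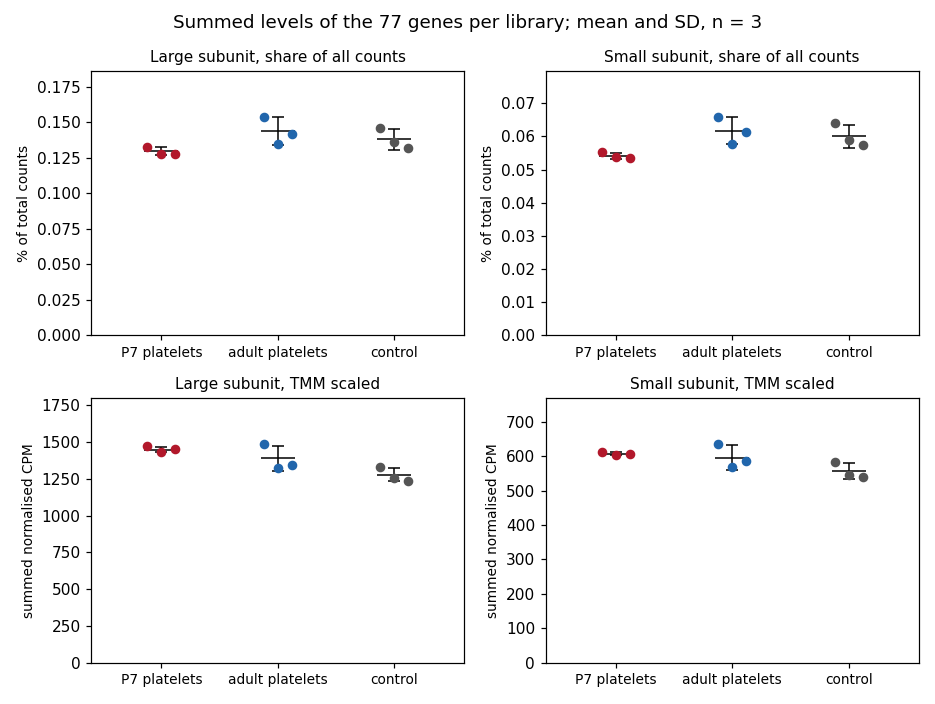
Summed levels of the 48 large and 29 small subunit genes in each library, as percent of all counts (top row) and as TMM-normalised CPM (bottom row), with points for libraries and bars for the mean and SD of 3. The P7 libraries are lowest as a share of counts (0.130% of counts for the large subunit) and, after TMM scaling, above the control libraries (1434 to 1472 against 1239 to 1329 for the large subunit).

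With library totals alone, the median of all genes moved to -0.29 with P7 platelets against control and that of the 77 members was -0.10. On that scale 9 members were called higher and 28 lower, beside 2193 higher and 6846 lower of all 13707 genes. With upper-quartile factors the medians were -0.12 for all genes and 0.08 for the members. Then 27 members were higher and 15 lower, beside 3279 and 5012 of all genes. A scaling factor moves every gene's log2 fold change by the same amount, so that the distance between the members' median and that of all genes is the same under any of the 4 scalings. It was 0.19 for P7 platelets against control, 0.12 for adult platelets against control and 0.09 for P7 against adult platelets. Changes below are on the TMM scale, and 13 members, Mrpl3, Mrpl17, Mrpl20, Mrpl21, Mrpl27, Mrpl39, Mrpl52, Mrpl54 and Mrps18b (higher) and Mrpl9, Mrpl34, Mrpl58 and Mrps35 (lower), were called in the same direction with P7 platelets under all 4. Such calls were not counted over all genes, so the number is not read as particular to these members.

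**Figure D2:**
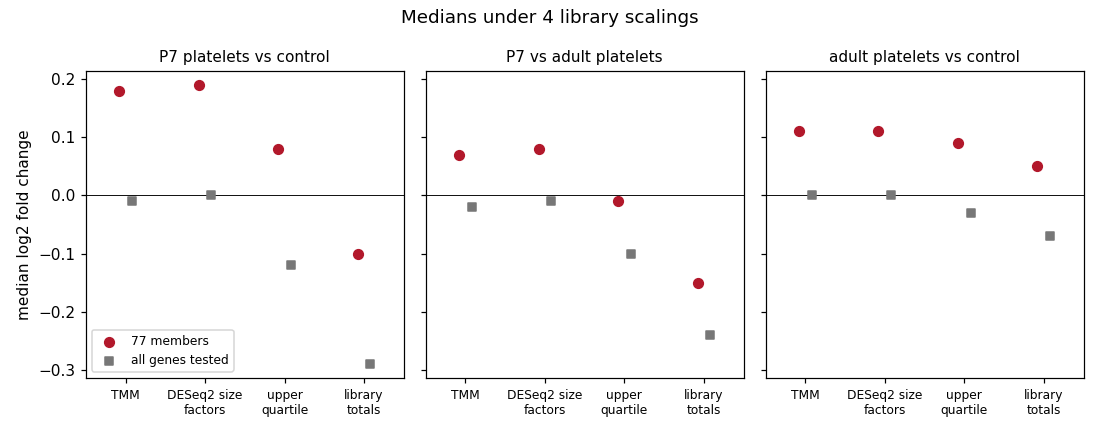
Median log2 fold change (vertical axis) of the 77 members (circles) and of all 13707 genes tested (squares) under 4 ways of scaling libraries, for each comparison. The members' median crosses 0 with library totals for P7 platelets against control (-0.10) and with upper-quartile factors or library totals for P7 against adult platelets (-0.01 and -0.15); its distance to that of all genes is fixed by construction.

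Mrpl52, a large subunit protein found only in mitochondria, rose most against control, with either kind of platelets. It had 63.9, 59.2 and 66.1 normalised CPM with P7 platelets, 51.0, 41.8 and 41.5 with adult platelets, and 32.7, 25.9 and 27.6 in control. The 3 groups did not overlap, and each platelet group lay above the control. Against control the log2 fold change was 1.13 ± 0.11 with P7 platelets (± is the SE; adjusted p = 2.07e-05 by edgeR's quasi-likelihood test) and 0.64 ± 0.10 with adult platelets (adjusted p = 0.00259). Between P7 and adult platelets it was 0.49 ± 0.10 (adjusted p = 0.00478), a call lost with library totals. The gene lies at chr14:54426909-54429756 on the plus strand (GRCm38, GENCODE M21), and no other annotated gene shares its exons. Mmp14, a membrane-bound matrix metalloprotease gene that starts 1855 bp beyond it on the same strand, had log2 fold changes of 3.76 ± 0.30 and 1.77 ± 0.28 against control with P7 and with adult platelets (adjusted p = 8.13e-06 and 0.00219). Slc7a7, the nearest protein-coding gene on the other side (9128 bp away, minus strand), had 0.93 ± 0.06 and 0.74 ± 0.06 (adjusted p = 2.37e-06 and 4.55e-05). Mmp14 and Slc7a7 were chosen after their values were seen, and reads that run past the end of Mrpl52 were not examined.

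Among the risers, Mrpl17 and Mrpl39 kept their calls against control and against adult platelets in all 21 other settings tried. Mrpl17, the homologue of the bacterial protein L17 at the mouth of the tunnel through which the new protein leaves, had 36.0, 34.2 and 37.1 normalised CPM with P7 platelets, 28.4, 26.5 and 26.4 with adult platelets, and 21.8, 21.3 and 20.7 in control. Its 3 groups were apart and the replicates of each were close together. The log2 fold change against control was 0.75 ± 0.05 with P7 platelets (adjusted p = 4.65e-06) and 0.35 ± 0.05 with adult platelets (adjusted p = 0.00175), and P7 exceeded adult platelets by 0.40 ± 0.05 (adjusted p = 0.000496).

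Mrpl39, which resembles part of a threonyl-tRNA synthetase, had 38.8, 44.2 and 46.5 normalised CPM with P7 platelets, 29.5, 31.5 and 28.3 with adult platelets, and 27.0, 25.4 and 25.6 in control. Every P7 library was above every other library, whereas adult and control libraries lay near each other without overlap. P7 platelets gave log2 fold changes of 0.73 ± 0.07 against control (adjusted p = 3.06e-05) and 0.54 ± 0.07 against adult platelets (adjusted p = 0.000567). Adult platelets against control gave 0.19 ± 0.07, which was not called (adjusted p = 0.0801).

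Mrpl54 is another large subunit protein without a bacterial counterpart. Its levels were 45.4, 44.3 and 45.8 normalised CPM with P7 platelets, 43.2, 35.0 and 39.4 with adult platelets, and 26.0, 24.6 and 26.8 in control. The control libraries stood well below all others. The log2 fold changes against control were 0.81 ± 0.07 with P7 platelets (adjusted p = 1.97e-05) and 0.60 ± 0.07 with adult platelets (adjusted p = 0.000565), and the difference between the platelet groups, 0.20 ± 0.07, just missed the threshold (adjusted p = 0.0519).

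Mrps18b led the small subunit. It is the product of one of 3 nuclear genes for relatives of the bacterial protein S18, and had 17.3, 16.6 and 17.6 normalised CPM with P7 platelets, 13.9, 13.4 and 11.5 with adult platelets, and 9.98, 8.98 and 10.1 in control. The groups were ordered without overlap. Its log2 fold changes were 0.82 ± 0.08 and 0.41 ± 0.08 against control with P7 and with adult platelets (adjusted p = 3.59e-05 and 0.00739), and 0.41 ± 0.08 between P7 and adult platelets (adjusted p = 0.00427). The last of these was lost with library totals. In GENCODE M21, 638 of its exonic bases (30.5%) are shared with the antisense gene Gm16279, which averaged 0.181 CPM.

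**Figure D3:**
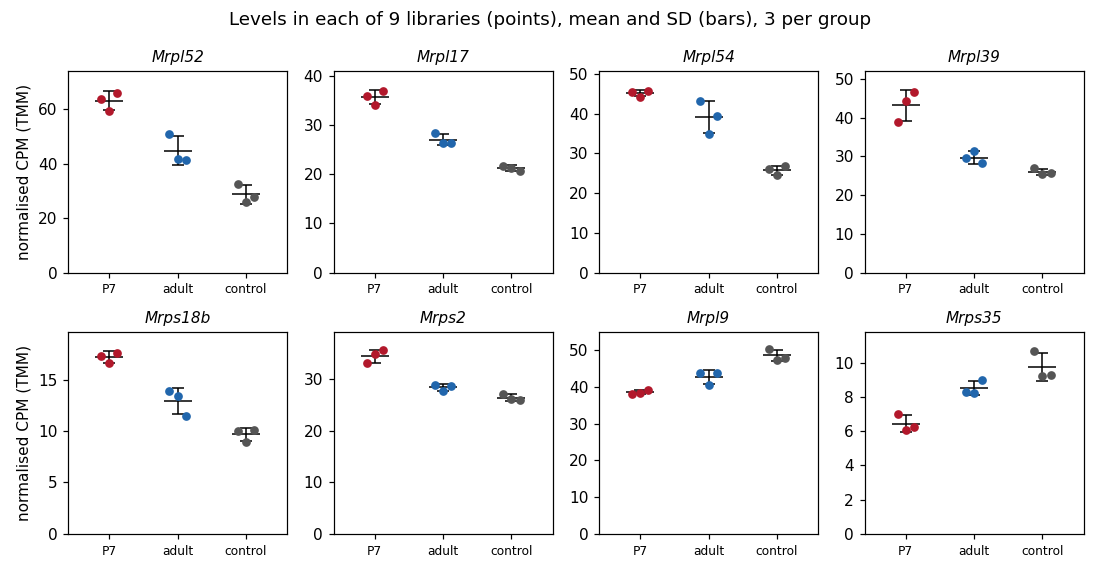
TMM-normalised CPM (vertical axis, from 0) of 8 members in each of the 9 libraries, as points, with the mean and SD of 3 libraries as bars, P7 platelets left, adult platelets in the middle and control right. Mrpl52, Mrpl17, Mrpl54, Mrpl39, Mrps18b and Mrps2 are highest with P7 platelets, while Mrpl9 and Mrps35 are lowest there; with library totals Mrps2 is no longer called.

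The promoters of 4 of these risers and of Mrpl9, which was called lower in all 3 comparisons, are shown because a larger share of this family's promoters than of all promoters holds a few short elements. RefSeq windows of 300 bases (250 before the transcript start to 50 after it, GRCm38.p6) matched 68 of the 77 members by symbol, with 74 windows. Capitals mark, on either strand, the elements of NRF1 (GCATGCGC), ETS factors such as GABP (CCGGAAG), YY1 (AAGATGGC), the E-box (CACGTG) and CCAAT, and each sequence runs 5′ to 3′ in the direction of its gene.
Mrpl52 (chr14:54426659-54426958, plus strand): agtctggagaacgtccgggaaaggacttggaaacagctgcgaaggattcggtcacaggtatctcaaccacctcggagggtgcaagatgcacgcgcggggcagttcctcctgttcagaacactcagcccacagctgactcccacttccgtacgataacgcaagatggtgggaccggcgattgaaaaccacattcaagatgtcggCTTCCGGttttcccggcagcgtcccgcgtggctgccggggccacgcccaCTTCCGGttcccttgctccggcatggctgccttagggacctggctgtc
Mrpl17 (chr7:105811038-105811337, minus strand): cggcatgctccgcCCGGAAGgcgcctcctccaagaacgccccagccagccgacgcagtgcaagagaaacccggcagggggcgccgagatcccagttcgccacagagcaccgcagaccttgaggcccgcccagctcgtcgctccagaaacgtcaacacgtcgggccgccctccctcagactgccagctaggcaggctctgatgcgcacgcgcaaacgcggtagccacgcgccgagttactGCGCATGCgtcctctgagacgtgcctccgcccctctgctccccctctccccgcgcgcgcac
Mrpl39 (chr16:84735195-84735494, minus strand): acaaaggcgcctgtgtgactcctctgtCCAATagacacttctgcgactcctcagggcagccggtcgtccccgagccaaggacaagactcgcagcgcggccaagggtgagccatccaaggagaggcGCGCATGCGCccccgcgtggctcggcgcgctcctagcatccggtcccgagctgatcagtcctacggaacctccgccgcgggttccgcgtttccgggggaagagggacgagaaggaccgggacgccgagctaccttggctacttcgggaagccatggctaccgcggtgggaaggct
Mrps18b (chr17:35916391-35916690, minus strand): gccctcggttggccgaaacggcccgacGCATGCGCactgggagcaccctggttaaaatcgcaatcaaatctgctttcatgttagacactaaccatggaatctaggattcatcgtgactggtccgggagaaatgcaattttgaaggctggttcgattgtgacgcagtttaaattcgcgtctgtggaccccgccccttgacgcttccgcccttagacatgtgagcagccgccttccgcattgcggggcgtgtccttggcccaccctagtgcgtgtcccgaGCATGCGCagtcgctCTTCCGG
Mrpl9 (chr3:94443086-94443385, plus strand): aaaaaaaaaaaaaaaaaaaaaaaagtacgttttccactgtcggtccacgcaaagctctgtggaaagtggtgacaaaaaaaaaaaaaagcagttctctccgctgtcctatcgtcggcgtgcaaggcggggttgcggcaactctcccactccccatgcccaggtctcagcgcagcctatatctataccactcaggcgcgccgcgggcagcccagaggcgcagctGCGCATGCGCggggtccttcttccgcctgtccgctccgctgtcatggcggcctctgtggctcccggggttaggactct

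The Mrpl17 and Mrps18b windows held both an NRF1 and an ETS element, Mrpl39 an NRF1 element and CCAAT, Mrpl9 an NRF1 element and Mrpl52 ETS elements. Over the family, 10.8% of the 74 windows held the NRF1 letters, against 2.71% of all 32851 promoter windows. The ETS letters were in 33.8% of the members' windows and 8.86% of all, and the YY1 letters in 16.2% and 2.75%. The E-box (9.46% and 7.15%) and CCAAT (39.2% and 37.4%) were nearly as common elsewhere. Of the 31 members with a window that rose with P7 platelets, 5 held the NRF1 element, 12 the ETS element and 6 the YY1 element. Among the 33 that were not called the numbers were 2, 10 and 6, and among the 4 that fell 1, 3 and 0. A match of letters is a description of these windows and shows no binding.

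Around the peptidyl transferase centre, where peptide bonds form, Mrpl3, Mrpl16 and Mrpl27 rose with P7 and with adult platelets, and Mrpl2 was not called in any comparison. Mrpl3 had 30.8, 28.4 and 30 normalised CPM with P7 platelets, 24.7, 26.1 and 26.2 with adult platelets, and 21.9, 20.9 and 20.5 in control. No group overlapped another. The log2 fold changes of Mrpl3 were 0.49 ± 0.05 and 0.28 ± 0.05 against control with P7 and with adult platelets (adjusted p = 4.75e-05 and 0.00512) and 0.21 ± 0.05 between P7 and adult platelets (adjusted p = 0.0112), and the last of these was lost with upper-quartile factors, with no filter, in the low-Igkc libraries and with library totals (0.00). Mrpl16 gave 0.42 ± 0.08 with P7 and 0.27 ± 0.08 with adult platelets against control (adjusted p = 0.00116 and 0.0293), and its adult call was lost in 7 of the 21 other settings, among them without adult replicate 1 or control replicate 2 or 3 (highest adjusted p = 0.11). Mrpl27 gave 0.51 ± 0.08 with P7 and 0.30 ± 0.08 with adult platelets against control (adjusted p = 0.000425 and 0.0210). The adult call of Mrpl27 was lost without adult replicate 1 or 2 or control replicate 2 or 3 (highest adjusted p = 0.0851). Mrpl2 stood at 24.8, 24.9 and 22.5 normalised CPM with P7 platelets, 28.5, 22.6 and 25.2 with adult platelets, and 25.6, 25.3 and 23.4 in control.

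Of the 6 proteins that line the exit tunnel or sit at its mouth, Mrpl17 and Mrpl47 rose with P7 platelets, a share near the 29.9% of all genes, and Mrpl4, Mrpl22, Mrpl23 and Mrpl24 were not called in any comparison. Mrpl24, among the most abundant members, had 87.2, 79.1 and 78.8 normalised CPM with P7 platelets, 96.0, 83.0 and 76.8 with adult platelets, and 83.1, 76.0 and 78.4 in control. The ranges overlapped, and the log2 fold change with P7 platelets was 0.05 ± 0.08 (adjusted p = 0.663), though with library totals it was -0.23 (adjusted p = 0.0391). Mrpl22 and Mrpl23 gave 0.08 ± 0.09 and -0.23 ± 0.13 (adjusted p = 0.463 and 0.149). Mrpl45, which ties the ribosome to the inner membrane next to the exit, gave 0.10 ± 0.07 with P7 and 0.02 ± 0.07 with adult platelets against control (adjusted p = 0.218 and 0.844).

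In the stalk, the flexible arm that recruits translation factors, Mrpl11 at its base rose, with 21.5, 21.5 and 20.1 normalised CPM with P7 platelets, 22.1, 17.8 and 18.1 with adult platelets, and 16.3, 16.1 and 15.7 in control. Both platelet groups lay above the control and overlapped each other. Mrpl11 gave 0.39 ± 0.08 with P7 platelets (adjusted p = 0.00301) and 0.27 ± 0.08 with adult platelets (adjusted p = 0.0419) against control, and the adult call was lost without any library other than adult replicate 2 or 3 (highest adjusted p = 0.125). Mrpl10 gave 0.13 ± 0.05 with P7 platelets (adjusted p = 0.0396). That call was lost without any single P7 or control library (highest adjusted p = 0.158), and with library totals the value was -0.15. Mrpl12, its partner in the stalk, was not called (0.16 ± 0.10, adjusted p = 0.167). Mrps12, the small subunit protein of the decoding centre, was not called in any comparison and had 0.17 ± 0.11 with P7 platelets (adjusted p = 0.201).

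Each of the S18 relatives rose with both kinds of platelets. Mrps18c, the form in the bacterial position, had 20.4, 19.9 and 19.7 normalised CPM with P7 platelets, 20.9, 17.0 and 18.5 with adult platelets, and 16.4, 14.4 and 13.0 in control. Control was lowest, and the platelet groups overlapped each other. Its log2 fold changes against control were 0.45 ± 0.10 with P7 and 0.36 ± 0.10 with adult platelets (adjusted p = 0.00303 and 0.0234). Mrps18a, which despite its name sits in the large subunit, gave 0.34 ± 0.06 and 0.21 ± 0.06 (adjusted p = 0.00138 and 0.0346). With adult platelets the Mrps18c call was lost without adult replicate 1 or control replicate 2 or 3 (highest adjusted p = 0.0863), and the Mrps18a call without any library other than adult replicate 2 or P7 replicate 1 (highest adjusted p = 0.121). Mrps18c shares 23.2% of its exonic bases with Gm43511, which averaged 1.14 CPM. Mrps30, the other small subunit name found in the large subunit, was not called (-0.07 ± 0.06 with P7 platelets against control, adjusted p = 0.361).

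Other members that rose only modestly included Mrpl20 and Mrpl21, homologues of bacterial large subunit proteins, with 0.43 ± 0.06 and 0.48 ± 0.06 with P7 platelets against control (adjusted p = 0.000147 and 0.000141). Mrpl46 and Mrpl50 gave 0.43 ± 0.07 and 0.36 ± 0.06 with P7 platelets (adjusted p = 0.000908 and 0.000558), and 0.31 ± 0.07 and 0.25 ± 0.06 with adult platelets (adjusted p = 0.0155 and 0.0133). Without control replicate 2 the adult call of Mrpl46 had an adjusted p of 0.0527, and without control replicate 3 that of Mrpl50 had 0.0625. Mrpl48 was the only member called with adult and not with P7 platelets against control (0.17 ± 0.05 and 0.09 ± 0.05, with adjusted p = 0.0364 and 0.155), and its call was lost in 13 of the 21 other settings. Mrpl13, Mrpl18 and Mrpl43 had P7 calls with adjusted p = 0.0253, 0.0270 and 0.0398, which were lost without control replicate 2 (and, for Mrpl13 and Mrpl18, without control replicate 3). Each was also lost without P7 replicate 2, and Mrpl18 and Mrpl43 without P7 replicate 1. Mrpl43 further lost its call without control replicate 1 or P7 replicate 3. With library totals the values of Mrpl13 and Mrpl18 were below 0 (-0.06 and -0.08, adjusted p = 0.507 and 0.36).

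**Figure D4:**
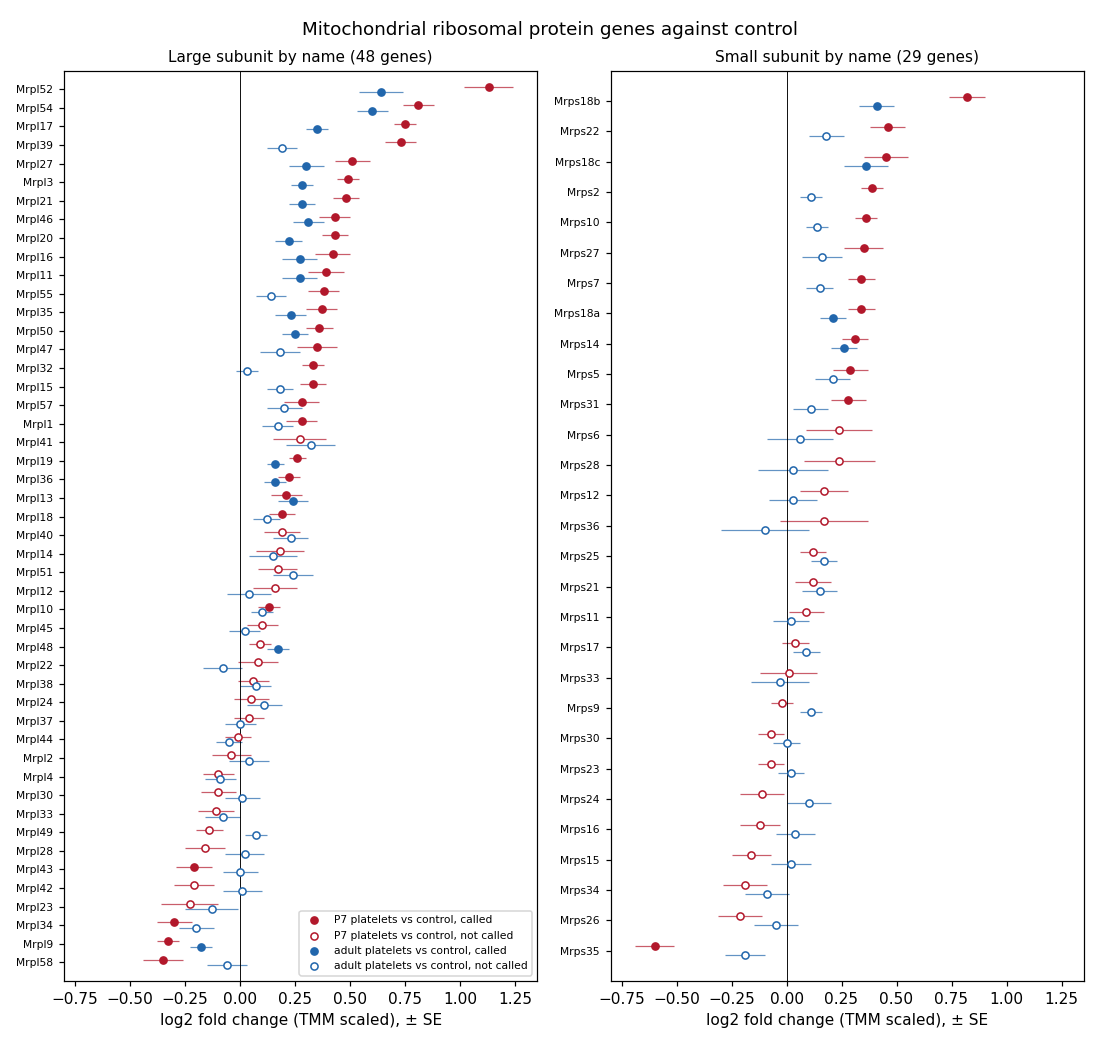
Log2 fold change against control on the TMM scale (horizontal axis, bars are the SE) of the 48 large and 29 small subunit genes, P7 platelets in red and adult platelets in blue, filled where the adjusted p was below 0.05. Most points lie right of 0, from -0.60 (Mrps35) to 1.13 (Mrpl52) with P7 platelets; with library totals the members' median with P7 platelets is -0.10.

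Few members fell. Mrps35, a small subunit protein without a bacterial counterpart, had 6.99, 6.07 and 6.26 normalised CPM with P7 platelets, 8.31, 8.27 and 9.01 with adult platelets, and 10.7, 9.24 and 9.32 in control. The 3 groups were apart, in the reverse order of Mrps18b. P7 platelets gave -0.60 ± 0.09 against control (adjusted p = 0.000419) and -0.40 ± 0.09 against adult platelets (adjusted p = 0.00733), whereas adult platelets against control gave -0.19 ± 0.09, which was not called (adjusted p = 0.146).

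Mrpl9, the homologue of bacterial L9, had 38.2, 38.4 and 39.1 normalised CPM with P7 platelets, 43.9, 40.5 and 43.8 with adult platelets, and 50.3, 47.4 and 47.9 in control. The groups did not overlap. Its log2 fold changes were -0.33 ± 0.05 for P7 against control (adjusted p = 0.000337), -0.18 ± 0.05 for adult platelets against control (adjusted p = 0.0226) and -0.15 ± 0.05 for P7 against adult platelets (adjusted p = 0.0403). The adult call was lost without adult replicate 2 or any single control library (highest adjusted p = 0.0774). The call between P7 and adult platelets held only without adult replicate 2 or control replicate 1 among the fits that left out a library (highest adjusted p = 0.113).

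Mrpl58 frees peptides from stalled ribosomes by cutting them off their tRNA. It had 21.1, 19.1 and 18.9 normalised CPM with P7 platelets, 25.7, 22.7 and 24.2 with adult platelets, and 28.1, 24.5 and 23.0 in control, so that only the P7 libraries stood apart. P7 platelets gave -0.35 ± 0.09 against control (adjusted p = 0.00606) and -0.29 ± 0.09 against adult platelets (adjusted p = 0.0238), and the call against adult platelets was lost without adult replicate 1 or 3 or P7 replicate 2 or 3 (highest adjusted p = 0.0872). Mrpl34 gave -0.30 ± 0.08 and Mrpl43 -0.21 ± 0.08 with P7 platelets against control (adjusted p = 0.00916 and 0.0398). Of the exonic bases of Mrpl43, 33.4% belong also to Twnk, the mitochondrial DNA helicase gene, which gave -0.83 (adjusted p = 6.03e-05), and the strand setting of the counting is unknown here. Exons of 32 members overlap another annotated gene, 8 of them over more than 20% of their length.

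With adult platelets against control 20 members rose and 1 fell (26% and 1.3% of 77), beside 14.3% of all genes called higher and 12% called lower. In the large subunit 16 of 48 rose (33.3%) and 1 fell (2.08%). In the small subunit 4 of 29 rose (13.8%), a share near the 14.3% of all genes. The medians were 0.15 and 0.10 in the large and small subunit, against 0.00 over all genes. No small subunit gene was called lower by edgeR, DESeq2 or limma-voom, and 0 were lower at an unadjusted p below 0.05. These counts rested on few libraries. The number called higher was 11 without adult replicate 1, 7 without control replicate 2 and 7 without control replicate 3, and the single lower call was lost without adult replicate 2 or any control library. Calls over all genes dropped too, with 1645, 1114 and 1194 higher in those fits, beside 1966 with all 9 libraries. The 6 members Mrpl3, Mrpl17, Mrpl21, Mrpl52, Mrpl54 and Mrps18b rose in every one of the 21 other settings, a count not made over all genes. In the low-Igkc libraries alone, which include only 1 adult library, assumed to vary like the others, 20 members rose and 3 fell.

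Between P7 and adult platelets 13 members rose and 4 fell (16.9% and 5.19% of 77), beside 19.7% of all genes higher and 19.8% lower, so the share that rose was near that of all genes. The large subunit had 8 higher and 3 lower and the small subunit 5 and 1, each with a median of 0.07, against -0.02 over all genes. With library totals only Mrpl17 and Mrpl39 were higher and 32 members were lower, beside 1427 higher and 5963 lower of all 13707 genes. Without adult replicate 1 the counts were 20 higher and 2 lower, without adult replicate 3 they were 8 and 2, and without P7 replicate 2 they were 8 and 1. All genes in those fits had 2620 higher and 2591 lower, 2251 and 2167, and 2072 and 1942, beside 2706 and 2718 with all 9 libraries. Leaving out adult replicate 2 gave 7 lower and P7 replicate 3 gave 2 lower, beside 2692 and 1959 of all genes. Mrpl17, Mrpl39 (higher) and Mrps35 (lower) were called in each of the 21 other settings. With only the low-Igkc libraries, again with 1 adult library, 17 members rose and 3 fell.

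Further members that were higher with P7 platelets than with either other group included Mrps2, Mrpl32 and Mrps10. Mrps2 had 33.1, 34.8 and 35.6 normalised CPM with P7 platelets, 28.9, 27.7 and 28.6 with adult platelets, and 27.1, 26.1 and 26.0 in control. The P7 libraries stood apart, and the other groups differed by little without overlapping. Mrps2, the homologue of bacterial S2, gave 0.39 ± 0.05 against control (adjusted p = 0.000107) and 0.28 ± 0.05 against adult platelets (adjusted p = 0.00167), while adult platelets against control gave 0.11 ± 0.05 (adjusted p = 0.136). Mrpl32 gave 0.33 ± 0.05 against control and 0.29 ± 0.05 against adult platelets (adjusted p = 0.000553 and 0.00223), and Mrps10 gave 0.36 ± 0.05 and 0.22 ± 0.05 (adjusted p = 0.000296 and 0.00863). All 3 lost both calls with library totals, and Mrps10 lost the call against adult platelets with upper-quartile factors, with no filter and in the low-Igkc libraries. Mrpl49 fell only between P7 and adult platelets (-0.21 ± 0.06, adjusted p = 0.0154), with an adjusted p of up to 0.0574 without adult replicate 2 or P7 replicate 2.

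The comparisons with control share their control libraries, so their values are given side by side and not as a test of each other. Of the 35 members that rose with P7 platelets, 19 were also called higher with adult platelets. In all, 6 members were higher in all 3 comparisons and 35 were called in none. Mean levels of 52 members were ordered, with the adult platelet libraries between the P7 and the control libraries. Shared calls and this order were not counted over all genes, so they are not read as particular to these members.

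Members that descend from bacterial proteins and those particular to mitochondria both included risers. Of 30 bacterial homologues in the large subunit 18 rose (60%) and 2 fell with P7 platelets, beside 29.9% of all genes higher and 29.3% lower. Of 18 mitochondria-specific proteins there 6 rose (33.3%, near the share of all genes) and 2 fell. In the small subunit 6 of 16 bacterial homologues rose (37.5%). None of the 16 was called lower by edgeR, DESeq2 or limma-voom (0 at an unadjusted p below 0.05). Of 10 mitochondria-specific proteins 4 rose (40%) and 1 fell. Mrps18b is counted among those 4 although it is a relative of bacterial S18, since Mrps18c holds the bacterial position. The differences between these classes were not tested. Log2 fold changes of the members spread less than those of all genes. The SD was 0.297 with P7 platelets against control, compared with 1.22 over all genes, and 0.159 compared with 0.868 with adult platelets. All genes include values up to 14.07 with P7 platelets, which widen the SD. Interquartile ranges with P7 platelets were -0.04 to 0.35 for the members and -0.40 to 0.34 for all genes. With P7 platelets 6 of the 77 members changed more than 1.5-fold, beside 4574 of all 13707 genes. Across the 77 genes, which are not independent and share libraries, Spearman's rho of the P7 fold change was 0.062 with transcript length and -0.039 with mean level.

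Per kilobase of transcript, member levels in control ranged from 2.34 CPM for Mrps35 to 202 CPM for Mrpl33. Mrpl52 was also high on this scale (68.8 CPM per kilobase), and Mrpl17, with a long annotated transcript, was low (2.91). Mrpl44, whose fold is that of an RNase III, and Mrpl41 were not called in any comparison. Mrpl41 had 0.27 ± 0.12 with P7 and 0.32 ± 0.11 with adult platelets against control (adjusted p = 0.0737 and 0.0656), and with a replicate block the P7 value, 0.26, was called (adjusted p = 0.0145). Mrps36, which is also known as a component of the oxoglutarate dehydrogenase complex, was the least abundant member with 2.84, 3.51 and 2.44 normalised CPM with P7 platelets, 3.02, 2.40 and 1.87 with adult platelets, and 2.68, 2.68 and 2.46 in control. Its groups overlapped, and its log2 fold change of 0.17 ± 0.20 with P7 platelets was not called (adjusted p = 0.498).

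Other genes that the mitochondrial ribosome works with did not follow one pattern. Counts with library totals below stand beside 2193 higher and 6846 lower of all 13707 genes with P7 platelets against control. Of 5 ribosomal proteins that carry other names, Aurkaip1 and Chchd1 rose with P7 platelets (0.28 and 0.21, adjusted p = 0.00538 and 0.0395). They are 40% of this short list, beside 29.9% of all genes. Dap3, Ptcd3 and Gadd45gip1 were not called, while with library totals 2 of the 5 were lower. Of 13 mitochondrial translation factors tested, 4 rose and 4 fell with P7 platelets against control (1 and 7 with library totals), and both shares, 30.8%, were near those of all genes, 29.9% higher and 29.3% lower. The elongation factor gene Gfm1 gave 0.43 and the recycling factor gene Mrrf 0.41 (adjusted p = 6.62e-05 and 0.00241), whereas the initiation factor gene Mtif3 gave -0.38 and the methionyl-tRNA formyltransferase gene Mtfmt -0.40 (adjusted p = 0.000891 and 0.000810). Of 24 genes for ribosome assembly and rRNA modification 6 rose (25%) and 9 fell (37.5%), beside 29.9% and 29.3% of all genes (3 and 14 with library totals). Fastkd2 rose (0.74, adjusted p = 3.01e-05). Rbfa and Mettl17, which act in maturation of the small subunit, fell (-1.11 and -0.89, adjusted p = 1.50e-05 and 2.73e-05).

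Mitochondrial aminoacyl-tRNA synthetases, which charge the tRNAs this ribosome reads, went mostly the other way. With P7 platelets against control 3 of 17 were higher (17.6%) and 11 lower (64.7%), beside 29.9% and 29.3% of all genes, with a median of -0.30. With adult platelets 1 was higher (5.88%) and 5 lower (29.4%), beside 14.3% and 12% of all genes. Cars2 had a log2 fold change of -1.34 with P7 platelets and Hars2 of -0.59 (adjusted p = 2.10e-05 and 1.48e-05), while Ears2 had 0.85 (adjusted p = 0.000179). Their median was below 0 under every scaling, at -0.41 with upper-quartile factors and -0.58 with library totals. Protein import, through which ribosomal proteins enter, had 16 of 25 genes higher with P7 platelets (64%, beside 29.9% of all genes). None was lower by edgeR, DESeq2 or limma-voom (0 at an unadjusted p below 0.05), although with library totals 7 were higher and 4 lower. With adult platelets against control 7 import genes rose (28%, beside 14.3% of all genes), and 9 were higher with P7 than with adult platelets (36%, beside 19.7%). Timm17a, a channel subunit of the inner membrane, gave 0.81, the matrix chaperone gene Hspa9 0.66 and the processing peptidase gene Pmpca 0.58 (adjusted p = 2.49e-06, 1.85e-05 and 3.61e-06).

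Of 24 nuclear respiratory chain genes, most of them partners of the proteins this ribosome makes, 17 rose (70.8%) and 1 fell (4.17%) with P7 platelets against control, beside 29.9% and 29.3% of all genes. With library totals none of them rose and 5 fell, beside 2193 higher and 6846 lower of all 13707 genes. With adult platelets against control 6 rose (25%, beside 14.3% of all genes). Between P7 and adult platelets 5 rose and 2 fell, where the share that rose (20.8%) was near that of all genes (19.7%). Of 26 genes for membrane insertion and respiratory chain assembly, 8 rose (30.8%, near the 29.9% of all genes) and 5 fell (19.2%, beside 29.3%), with 1 and 8 under library totals. The genes that fell included Oxa1l, which inserts the new proteins into the membrane (-0.58, adjusted p = 7.69e-05). Of 21 genes for mitochondrial transcription and RNA stability, 8 rose (38.1%) and 2 fell (9.52%) with TMM scaling, against 4 and 10 with library totals.

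**Figure D5:**
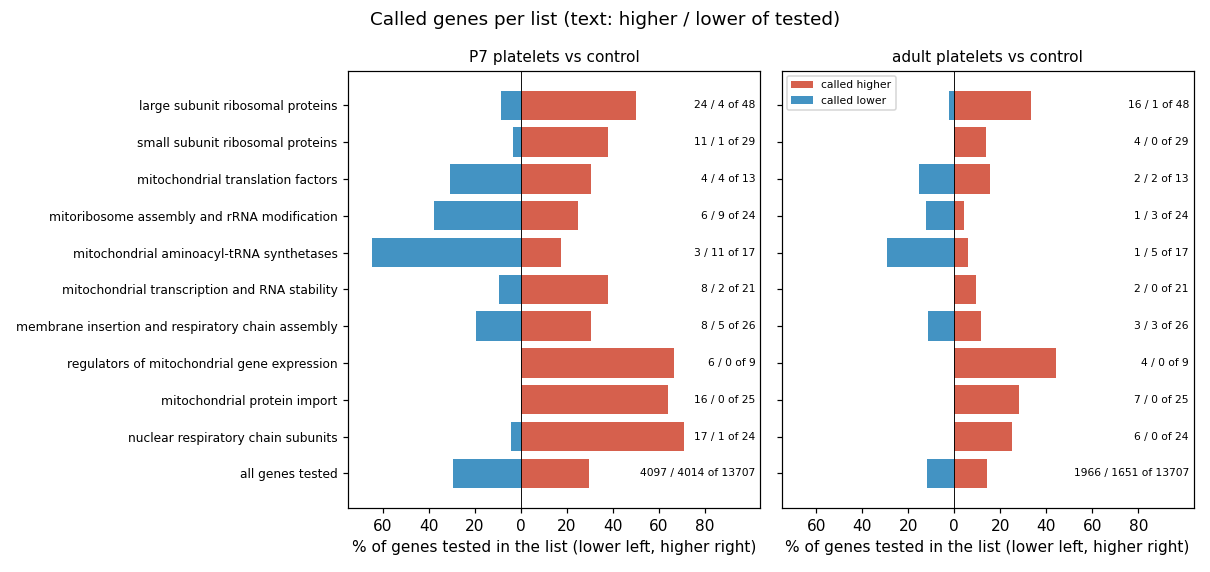
Percent of the tested genes of each list called higher (right) or lower (left of 0) against control on the TMM scale, for P7 platelets (left panel) and adult platelets (right panel), with counts of higher, lower and tested genes. Import (16 higher, 0 lower of 25) and respiratory chain genes (17 and 1 of 24) lie on the higher side and aminoacyl-tRNA synthetases (3 and 11 of 17) on the lower side. With library totals the counts for P7 platelets are 7 and 4, 0 and 5, and 1 and 14. All 13707 genes then have 2193 higher and 6846 lower.

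Of 9 regulators of mitochondrial gene expression tested, 6 rose with P7 platelets (66.7%, beside 29.9% of all genes). None was called lower by edgeR, DESeq2 or limma-voom (0 at an unadjusted p below 0.05). Gabpb1 and Gabpa, the subunits of a transcription factor of the ETS family, gave 0.74 and 0.31 (adjusted p = 3.84e-05 and 0.000645), Nrf1 gave 0.39 (adjusted p = 0.000125), and Yy1 was not called (-0.10, adjusted p = 0.118). Pprc1, a coactivator of Nrf1, gave 0.67 with P7 and 0.34 with adult platelets (adjusted p = 3.74e-05 and 0.00673). With library totals 4 of the 9 rose and 2 fell.

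The 2 mitochondrial rRNAs, around which the proteins assemble, were far higher with platelets, together 0.916 to 1.22% of counts with P7 platelets, 0.853 to 1.03% with adult platelets and 0.131 to 0.157% in control. Platelets contain mitochondria of their own, and which cells these RNAs came from was not tested. The proteins of the ribosome changed by far less: the median log2 fold change of the rRNAs was 3.02 and that of the 77 protein genes 0.18 with P7 platelets against control. Of the 13 mitochondrially encoded mRNAs 7 had enough counts to be tested, and mt-Nd6 alone was called (1.42 with P7 platelets against control, adjusted p = 0.00491), while with a replicate block 6 were called higher.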

How the data were processed

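The deposited values are raw counts of reads per gene symbol in each of 9 libraries, one table per library, not normalised by the authors. Per the labels' protocols, Trizol RNA was cleaned of DNA, selected with oligo-dT and made into strand-marking libraries read as 75 nt single ends. The tools named, per the submitters' processing notes, are Salmon 1.3.0, featureCounts of Subread 2.0.1, STAR 2.7.6a and fastp 0.20.1. Which tool made the counts, on which build and annotation and with which strand setting, is not given in the sources used here. GENCODE M21 holds 53292 of the 55367 symbols and lacks 2075; positions, exon overlaps and transcript lengths come from that annotation, and genes with near-identical copies can share reads.

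Counts were fitted with edgeR 4.0.16 (R 4.3.3) by a quasi-likelihood model over all 9 libraries. Each group had 1 mean, library sizes were scaled by TMM, and filterByExpr (minimum count 10) kept 13707 genes and 6 residual degrees of freedom. Calls were made at an adjusted p below 0.05 (Benjamini-Hochberg over all genes tested in a comparison). The biological coefficient of variation was 0.114. Normalised CPM are CPM of the TMM-scaled library size. Levels per kilobase use the principal transcript. Shares are percent of all counts of a library. The script was tested on simulated data.

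The members, the gene lists and the rule for named genes were chosen with earlier results of these data known. For each comparison the rule names the called members with the smallest p, up to 8 higher and 8 lower, among those whose groups do not overlap, 16 members whatever their values, and up to 3 called genes of each list. Other members, Mmp14 and Slc7a7 were named after their values were seen. Alternatives were DESeq2 1.42.0 size factors and its Wald test, upper-quartile factors, no filter, a stricter filter (mean count 50) and limma-voom (limma 3.58.1). Others were a fit to only the 2 groups compared, a replicate block, a term for the libraries above 300 CPM of Igkc, and only the other libraries. A further fit removed the platelet and red cell markers and mitochondrially encoded transcripts, and kept all other transcripts of those cells. The rest were an adjusted p below 0.01, all matching rows, the subunits by structure, and leaving out each library in turn. Library totals without scaling factors were added after the data were seen. Deviations from group means of same-numbered P7 and control libraries correlated at 0.209 to 0.576 (different numbers -0.464 to 0.307). The ranges overlap, and the highest value, 0.576, was between the replicates 1, where Igkc was high. Libraries of P7 and control with the same number may be paired, which the labels do not state and these values cannot settle. Same-numbered values of adult libraries were -0.077 to 0.557 with control and -0.081 to 0.486 with P7 libraries. The results given first come from the fit without a block, so their calls, SE and p-values use no pairing in any comparison. The replicate block gave 38 members higher and 8 lower for P7 against control. No library was left out of the results given first.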

Additional observations from a re-analysis of the deposited data

How the results depend on the processing

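With library totals, P7 platelets against control gave 9 members higher and 28 lower, with medians of -0.08 (large subunit) and -0.11 (small), adult platelets against control gave 8 higher with medians of 0.09 and 0.04, and P7 against adult platelets gave 2 higher and 32 lower with medians of -0.15 and -0.15. For members named by rule, 21 values then changed sign: for P7 platelets against control Mrpl10 (-0.15), Mrpl12 (-0.11), Mrps12 (-0.11), Mrpl45 (-0.18), Mrpl22 (-0.19), Mrpl24 (-0.23), Mrps36 (-0.11) and Mrpl41 (-0.01), of which Mrpl10 and Mrpl24 were called lower (adjusted p = 0.0441 and 0.0391), for adult platelets against control Mrpl12 (-0.03), Mrps12 (-0.03) and Mrpl45 (-0.04), and for P7 against adult platelets Mrpl3 (0.00), Mrpl10 (-0.18), Mrpl12 (-0.09), Mrpl11 (-0.09), Mrps12 (-0.08), Mrpl45 (-0.13), Mrpl22 (-0.04), Mrps18a (-0.09), Mrps18c (-0.12) and Mrpl44 (-0.18), of which Mrpl10 and Mrpl44 were called lower (adjusted p = 0.023 and 0.0495). Upper-quartile factors gave 15 lower with medians of 0.09 and 0.07 for P7 platelets against control, 12 higher for adult platelets against control, and 6 higher and 8 lower with medians of -0.01 and -0.01 for P7 against adult platelets. Upper-quartile factors also changed the sign of uncalled values of Mrpl45 (0.00), Mrpl22 (-0.02) and Mrpl24 (-0.06) for P7 platelets against control, Mrpl45 (-0.01) for adult platelets against control, and Mrpl10 (-0.04) and Mrpl44 (-0.04) for P7 against adult platelets. The lower share of calls follows from the scaling itself, which moved the median of all genes. With library totals 2193 of all 13707 genes were higher and 6846 lower for P7 platelets against control. For P7 against adult platelets they were 1427 and 5963. With no filter, which tests more genes, adult platelets against control had 13 higher and 0 lower and P7 against adult platelets 7 higher. With only the 2 groups compared, adult platelets against control had 11 higher and 0 lower. At an adjusted p below 0.01 the counts were 6 higher and 0 lower for adult platelets against control and 7 higher and 1 lower for P7 against adult platelets. A term for Igkc gave 2 lower for adult platelets against control, and the low-Igkc libraries alone gave 8 lower for P7 and 3 lower for adult platelets against control and a small subunit median of 0.15 for P7 against adult platelets; the cause was not tested. The Igkc term changed the sign of uncalled values of Mrpl12 (0.00), Mrps12 (-0.02) and Mrpl45 (-0.01) for adult platelets against control and Mrpl41 (0.01) for P7 against adult platelets, and the low-Igkc libraries those of Mrpl44 (0.02) for P7 platelets against control, Mrpl12 (-0.14), Mrps12 (-0.16) and Mrps30 (0.00) for adult platelets against control and Mrpl41 (0.03) for P7 against adult platelets; Mrps30 (0.00) did so with only the 2 groups compared. Without the platelet and red cell markers and mitochondrially encoded transcripts in the total the P7 shares were 0.140% (large) and 0.0586% (small). Leaving out each library in turn gave 7 to 22 higher and 0 to 1 lower for adult platelets against control, 8 to 20 higher and 1 to 7 lower for P7 against adult platelets, 32 to 38 higher and 4 to 6 lower for P7 platelets against control, and small subunit medians of 0.11 to 0.19 for P7 platelets against control and 0.03 to 0.12 for P7 against adult platelets. Uncalled values that changed sign without a library ranged, for adult platelets against control, over -0.09 to 0.13 (Mrpl12), -0.07 to 0.13 (Mrps12), -0.04 to 0.07 (Mrpl45), -0.12 to 0.03 (Mrpl58), -0.04 to 0.04 (Mrps30) and -0.28 to 0.06 (Mrps36), for P7 platelets against control over 0.00 to 0.08 (Mrpl24) and -0.06 to 0.02 (Mrpl44), and for P7 against adult platelets over -0.13 to 0.03 (Mrpl24) and -0.14 to 0.08 (Mrpl41). With a replicate block the counts were 38 higher and 8 lower, 26 and 1, and 16 and 6, for P7 against control, adult against control and P7 against adult platelets. Deviations of same-numbered libraries correlated at 0.209 to 0.576 between P7 and control, -0.077 to 0.557 between adult and control and -0.081 to 0.486 between P7 and adult libraries, and those of different numbers at -0.558 to 0.428. Control replicate 2 correlated more with P7 replicate 3 (0.307) than with P7 replicate 2 (0.209). DESeq2, limma-voom, DESeq2 size factors, the stricter filter and removal of those markers and mitochondrially encoded transcripts left the counts within 1.5 times of those reported. For named members, 1529 values kept direction and side of the threshold, 87 lost and 26 gained a call, and 52 changed sign, most of them uncalled.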
